A study of Mus musculus with 12 samples.

Results

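The genes of DNA replication and S phase were followed in RNA-seq of mouse kidney after ischemia. The 39 genes were chosen by symbol, as a list of 6 roles, out of the 23420 genes counted. The roles are origin licensing (8 genes), helicase activation (4), the replication fork (13), nucleotide supply and uracil removal (6), chromatin copying and histone mRNA (5) and the control of entry into S phase (3). Of the 39 genes, 32 had enough counts to be tested.

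A cell that is going to divide first licenses its origins of replication by loading the ring of Mcm subunits onto DNA, and later switches that ring on as a helicase. DNA polymerases then copy the opened strands behind a sliding clamp, fed by enzymes that make deoxynucleotides, while chromatin factors restore histones and DNA methylation on the copies. Many of these genes are switched on together by E2F transcription factors at the border of G1 and S phase. The adult kidney divides little, and tubule cells that survive an injury can re-enter the cell cycle.

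The kidneys came from male C57BL/6J mice, 8 to 15 weeks old by the methods of the study, and fell into 3 groups of 4. The control kidneys were removed at nephrectomy, by the methods, although the labels give the same protocol of 20 min of clamping and 24 h of reperfusion for all 12 kidneys, controls included. The 8 ischemic kidneys were clamped with the animals conscious or anaesthetised, but their labels contradict each other. The 4 kidneys called group A here are titled anaesthetised and carry a group field of conscious. The 4 kidneys called group B are titled conscious and carry a group field of anaesthesia. No direction is therefore given to anaesthesia. Both ischemic groups were compared with the same 4 controls. The methods describe an operation to place the clamp, with or without removal of the other kidney, before the ischemia. Against these controls, ischemia, that surgery and loss of the other kidney cannot be told apart. The labels do not say whether control and ischemic kidneys came from the same mice, and the p-values measure the spread between these kidneys.

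The libraries held from 15367342 to 44793350 counted reads, and 3 counts, taken as the floor of detection, stood for 0.067 to 0.195 CPM (counts scaled to the counted total of the library). The floor covers counting error only. In 16 instances among the 39 genes a kidney had a count of 0 while the other 3 of its group had at least 10, so a limit drawn from a count of 0 holds only as far as the zeros of the table are counts of reads. On the 2nd principal component of all genes, group B replicate 4 stood apart at 149.4, with the other kidneys between -41.4 and 25.6, and counts of the replication genes that rose are also given without it. The proximal tubule markers were present in every kidney, at a summed 6895 to 7863 CPM in controls, 754.0 to 1457 CPM in group A and 460.4 to 1446 CPM in group B, so the samples held the labelled tissue. Those 7 markers all fell in both ischemic groups. The injured tubule markers summed to 15.9 to 23.2 CPM in controls, 525.2 to 814.3 CPM in group A and 583.4 to 1006 CPM in group B. In whole tissue, fewer cells of a type and less RNA per cell cannot be told apart.

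Promoters of the replication genes were looked up first, since many of these genes are known targets of E2F. RefSeq promoters of GRCm38.p6, from 250 bases before the gene start to 50 bases after it, were matched for 33 of the 39 genes, and the missing ones were Ccne2, Gins1, Gins2, Mcm4, Pole and Rfc2. The words TTTCCCGC, TTTGGCGC and TTTCGCGC, which are E2F-type words, were searched on both strands, and the 2 last ones can overlap. At least 1 of them stood in a promoter of 12 of 33 genes (36.4%), against 573 of all 27025 genes (2.12%), where a gene with several promoters counts once. By promoter it was 12 of 40, against 606 of all 32851 promoters (1.84%). A word match is a description of the letters and not a site. They stood in 4 of 9 matched genes that rose in at least 1 ischemic group and in 8 of 24 others. The words TTTGAA and TTCGAA, the cell cycle homology region, were found in 18.2% of the genes and 21.7% of all genes. CCAAT stood in 54.5% of the genes, against 41.1% of all genes. Shown here are 4 promoters, on the strand of the gene, with the E2F-type words in capitals. Mcm3 (chr1:20820263-20820562, minus strand) and Pola1 (chrX:93632106-93632405, minus strand) were higher in both ischemic groups and held these words. Mcm6 (chr1:128359656-128359955, minus strand) held 3 matches, a pair of them overlapping, and passed the test in neither ischemic group. Rrm2 (chr12:24708004-24708303, plus strand) had the largest rise among the genes called in both ischemic groups and held none.
Mcm3: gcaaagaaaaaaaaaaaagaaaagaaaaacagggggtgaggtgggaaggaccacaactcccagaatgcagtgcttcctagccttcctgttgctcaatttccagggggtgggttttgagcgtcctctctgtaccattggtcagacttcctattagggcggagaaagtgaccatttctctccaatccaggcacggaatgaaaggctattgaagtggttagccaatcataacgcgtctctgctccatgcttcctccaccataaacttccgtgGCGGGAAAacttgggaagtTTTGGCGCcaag
Pola1: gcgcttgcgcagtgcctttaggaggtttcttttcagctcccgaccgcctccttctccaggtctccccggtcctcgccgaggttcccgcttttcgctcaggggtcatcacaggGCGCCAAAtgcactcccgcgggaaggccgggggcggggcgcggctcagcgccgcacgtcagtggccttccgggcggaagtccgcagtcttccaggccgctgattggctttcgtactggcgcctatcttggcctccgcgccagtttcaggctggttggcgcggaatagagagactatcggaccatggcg
Mcm6: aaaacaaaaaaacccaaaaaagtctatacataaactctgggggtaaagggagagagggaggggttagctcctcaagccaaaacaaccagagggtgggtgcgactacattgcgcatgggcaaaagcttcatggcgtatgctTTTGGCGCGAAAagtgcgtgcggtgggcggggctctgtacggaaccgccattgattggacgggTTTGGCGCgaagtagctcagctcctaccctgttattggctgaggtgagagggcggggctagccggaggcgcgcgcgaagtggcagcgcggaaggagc
Rrm2: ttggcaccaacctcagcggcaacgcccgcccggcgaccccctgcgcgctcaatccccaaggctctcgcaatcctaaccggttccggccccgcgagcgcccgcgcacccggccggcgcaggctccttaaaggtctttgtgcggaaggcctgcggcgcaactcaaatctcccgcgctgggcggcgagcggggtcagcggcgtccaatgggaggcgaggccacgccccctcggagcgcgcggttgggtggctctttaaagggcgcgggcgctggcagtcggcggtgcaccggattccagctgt
In Mcm3 the words began 20 and 39 bases into the transcribed side, counting the gene start as base 1. In Pola1 the word began 138 bases before the start, and in Mcm6 the words began 110, 106 and 47 bases before it.

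Replication genes were higher in both ischemic groups than in the controls. In group A, 11 of the 32 genes tested rose (Mcm2, Mcm3, Mcm4, Pola1, Pold1, Pole, Fen1, Rrm1, Rrm2, Uhrf1 and E2f1) past an adjusted p of 0.05 (quasi-likelihood F-test of edgeR, adjusted by Benjamini-Hochberg over 11664 genes), where 10.5% of all genes tested rose. None of the 32 fell, where 11.7% of all genes fell. Of the 11, Uhrf1 had no count in the controls and had enough counts to be tested only through the ischemic kidneys. In group B, 8 genes rose (Mcm2, Mcm3, Mcm4, Pola1, Pole, Rrm1, Rrm2 and E2f1), where 10.9% of all genes rose, and none fell, where 11.9% of all genes did. These 8 are among the 11 of group A, and over all genes tested 9.07% rose in both comparisons, which share their controls. At an unadjusted p below 0.05 the numbers were 15 in group A and 17 in group B, all with estimates above 0. In either direction, 31.5% and 32.7% of all genes tested were below it. Without group B replicate 4, 12 genes rose in group B, among them the same 8, where 9.84% of all genes rose, and 10 rose in group A, where 11.2% did. DESeq2 and limma-trend each called 15 in group B, the same 8 included, where they called 13.4% and 11.6% of all genes higher. In group A they called 12 and 14, where they called 12.8% and 11.4% of all genes higher.

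Estimates were above 0 for most of the list. The median log2 fold change over the 32 genes was 1.57 in group A and 1.70 in group B, against -0.02 over all genes tested in either comparison. The estimate was above 0 for 26 of 32 genes in group A and for 31 of 32 in group B. In group A, 10 of the 32 genes were above all 4 controls in every kidney, where 13.2% of all genes tested were, and in group B 12 of 32 were, where 12.1% of all genes were.

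**Figure D1:**
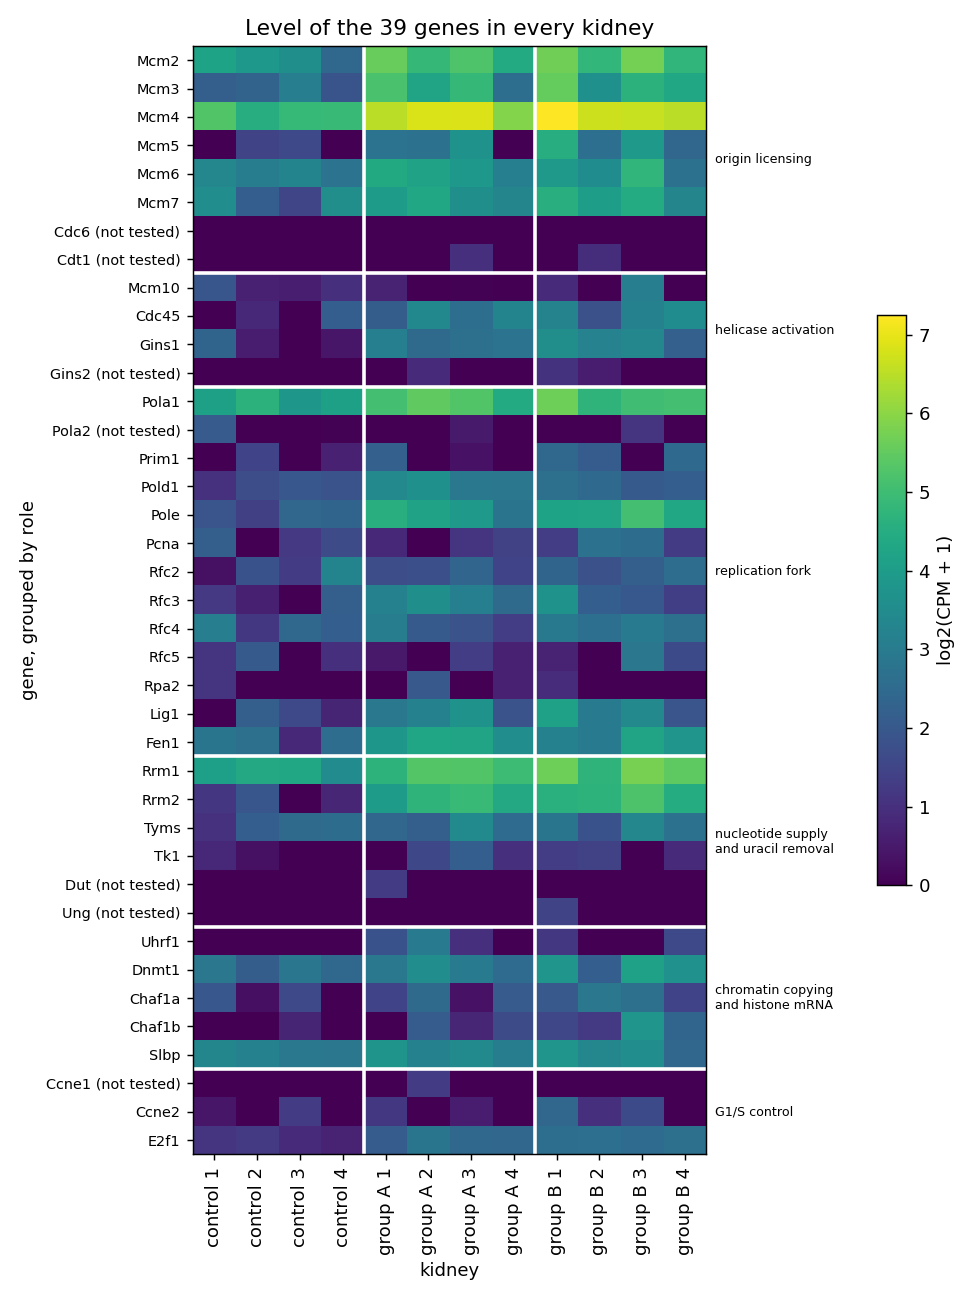
Level of each of the 39 genes (rows, grouped by role) in each of the 12 kidneys (columns), as log2(CPM + 1). The 8 ischemic kidneys are brighter in most rows, Mcm4 is the brightest row, and dark cells are kidneys with a count of 0.

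The summed level of the 39 genes separated the ischemic kidneys from the controls. It was 169.7, 139.4, 131.6 and 133.9 CPM in control replicates 1 to 4, 405.8, 445.4, 439.5 and 251.2 CPM in group A and 577.5, 348.7, 534.4 and 358.8 CPM in group B. The lowest ischemic kidney was thus above the highest control. The mean was 143.7 ± 17.7 CPM (SD, n = 4) in controls, 385.5 ± 91.2 CPM in group A and 454.8 ± 118.1 CPM in group B. Mcm4 alone made up a large share of these sums, and without it the means were 114.3, 290.4 and 343.9 CPM. The 3 lowest sums among the ischemic kidneys belonged to group A replicate 4 and group B replicates 2 and 4, which were also the 3 shallowest libraries of all, with 16814285, 16105062 and 15367342 counts. The part of depth in these sums was not tested.

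**Figure D2:**
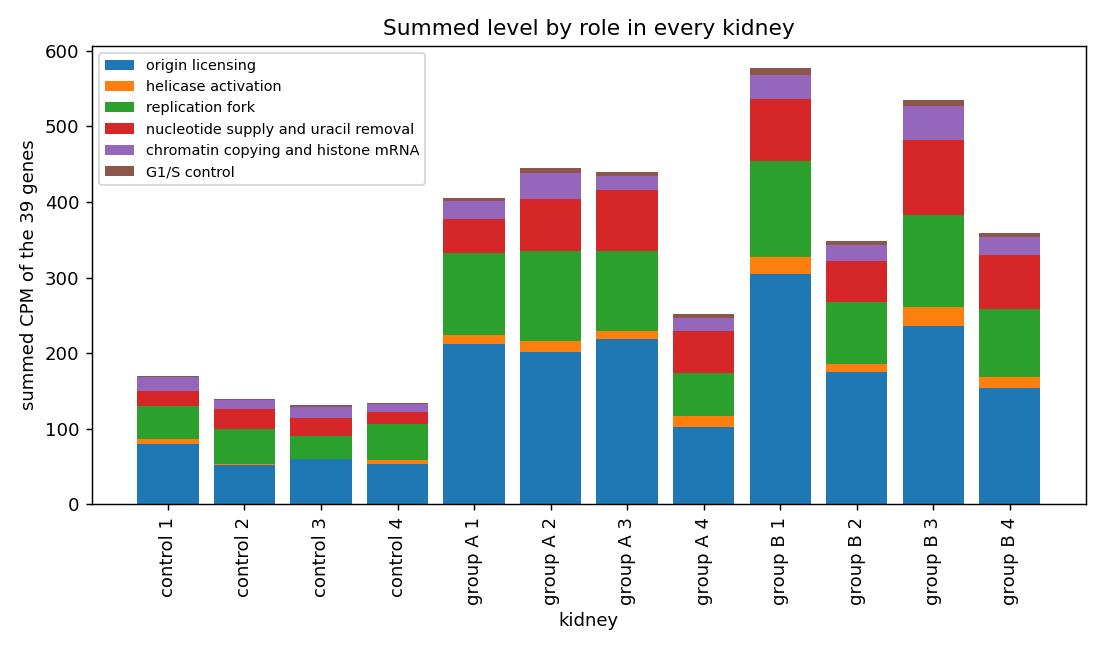
Summed CPM of the 39 genes in each kidney (bars from 0), split by role (colours). Controls sit between 131.6 and 169.7 CPM and ischemic kidneys between 251.2 and 577.5 CPM, with origin licensing as the largest share in every kidney.

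Origin licensing carried the largest sum of any role, 61.0 ± 12.6 CPM (SD, n = 4) in controls, 183.6 ± 54.9 CPM in group A and 217.5 ± 68.3 CPM in group B. The Mcm2 to Mcm7 subunits form the helicase ring, in equal number, and Cdc6 and Cdt1 help to load it. Of the 8 genes, 6 were tested, and all 6 had estimates above 0 in both ischemic groups. The same 3 rose in each, where 9.07% of all genes tested rose in both. The median log2 fold change of the role was 1.57 in group A and 1.81 in group B.

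Mcm4 (chr16:15623897-15637400, minus strand), which encodes a ring subunit, was the most abundant gene of the list per length. It was at 38.2, 21.9, 28.1 and 29.4 CPM in control replicates 1 to 4, at 90.4, 114.1, 116.3 and 59.5 CPM in group A and at 151.3, 103.8, 98.6 and 89.8 CPM in group B. No ischemic kidney reached down to the controls. In edgeR the log2 fold change was 1.67 (SE 0.23, adjusted p = 1.6e-05) in group A and 1.90 (SE 0.23, adjusted p = 3.8e-06) in group B.

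Mcm2 (chr6:88883474-88898780, minus strand) is another subunit of the ring. Its values were 17.6, 13.6, 11.2 and 4.41 CPM in controls, 45.9, 27.5, 37.2 and 20.6 CPM in group A and 50.1, 26.9, 52.2 and 26.1 CPM in group B. No ischemic kidney overlapped the controls. It rose by a log2 fold change of 1.47 (SE 0.37, adjusted p = 0.0059, edgeR) in group A and 1.72 (SE 0.37, adjusted p = 0.0018) in group B.

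Mcm3 (chr1:20802968-20820312, minus strand), also a ring subunit, had the largest estimates of the 3. It stood at 3.54, 3.93, 7.61 and 2.67 CPM in controls, 35.1, 17.9, 27.5 and 5.17 CPM in group A and 45.4, 11.4, 24.3 and 19.4 CPM in group B. Group A replicate 4 fell among the controls, while all of group B lay above them. In edgeR it changed by 2.24 on the log2 scale (SE 0.52, adjusted p = 0.0034) in group A and 2.48 (SE 0.53, adjusted p = 0.0016) in group B.

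The other ring subunits did not pass the test with all kidneys. The log2 fold changes of Mcm5, Mcm6 and Mcm7 were 2.55 (SE 1.28), 0.89 (SE 0.45) and 0.99 (SE 0.50) in group A, with edgeR adjusted p of 0.18, 0.18 and 0.19, and 3.51 (SE 1.33), 0.83 (SE 0.45) and 1.33 (SE 0.51) in group B, with adjusted p of 0.066, 0.22 and 0.065. Without group B replicate 4, Mcm5 and Mcm7 passed in group B (adjusted p = 0.049 and 0.030), and with limma-trend both did too. Mcm5 was listed at 0 in control replicates 1 and 4 and in group A replicate 4, and reached 21.8 CPM in group B. Exons of Mcm7 share 321 bases with Ap4m1 on the other strand, and the strand setting of the read counting is not given in the sources used here. Per length the subunits were unequal: in group A the level was 26.5 CPM per kb of exon for Mcm4 and between 1.46 and 5.71 CPM per kb for the other 5, and in controls it was 8.18 against 0.24 to 1.68 CPM per kb. Cdc6 had no count in any kidney, which allows up to 0.067 to 0.195 CPM by the floor, and Cdt1 had 43 counts in group A replicate 3, 15 in group B replicate 2 and none elsewhere, so neither was tested.

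Helicase activation turns the loaded ring on, through Cdc45 and the GINS complex, with Mcm10. Of its 4 genes, 3 were tested and none passed in either ischemic group in edgeR, where 10.5% and 10.9% of all genes rose. Gins1 and Cdc45 passed in both with limma-trend. Their sums were 3.51 ± 2.90 CPM (SD, n = 4) in controls, 12.9 ± 2.11 CPM in group A and 17.9 ± 6.38 CPM in group B. Gins1 (chr2:150905400-150931280, plus strand), a GINS subunit and the gene of the role with the highest level per length, was at 4.08, 0.46, 0 and 0.36 CPM in controls, 7.70, 4.73, 5.45 and 5.77 CPM in group A and 10.9, 8.20, 9.23 and 3.64 CPM in group B. Group A lay above all controls, while group B replicate 4 lay below control replicate 1. The log2 fold change of 2.30 (SE 0.98) in group A had an adjusted p of 0.11 in edgeR, and that of 2.75 (SE 1.0) in group B had an adjusted p of 0.055. Both depended on control replicate 1, the one high control, without which the log2 fold changes were 4.36 (adjusted p = 0.0038, edgeR) and 4.80 (adjusted p = 0.0021). In group B it also passed without group B replicate 4, at an adjusted p of 0.041.

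Cdc45, the cofactor of the active helicase, had log2 fold changes of 2.60 (SE 1.13, edgeR adjusted p = 0.11) in group A and 2.74 (SE 1.13, adjusted p = 0.093) in group B. Without control replicate 4 these were 4.62 (adjusted p = 0.012) and 4.75 (adjusted p = 0.011). Mcm10 had estimates of -2.92 (SE 2.16) in group A and 0.77 (SE 2.02) in group B, with adjusted p of 0.42 and 0.87, and group B replicate 3, at 7.65 CPM, held most of its signal there. Gins2 was not tested, with 19 counts in group A replicate 2, 33 and 8 in group B replicates 1 and 2 and none in the other 9 kidneys.

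At the replication fork, 4 of 12 tested genes rose in group A and 2 in group B, where 10.5% and 10.9% of all genes rose. These are the genes of the polymerases and of the proteins that join and trim the new strands. The role summed to 42.3 ± 8.16 CPM (SD, n = 4) in controls, 97.5 ± 27.4 CPM in group A and 105.3 ± 22.2 CPM in group B. Its median log2 fold change was 1.31 in group A and 0.95 in group B.

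Pole (chr5:110286306-110337474, plus strand) encodes the catalytic subunit of the leading strand polymerase epsilon. It was at 2.75, 1.58, 4.29 and 4.03 CPM in controls, 22.9, 17.1, 14.1 and 5.95 CPM in group A and 17.3, 17.9, 32.9 and 19.4 CPM in group B. Every ischemic kidney was above every control. The log2 fold change was 2.22 (SE 0.45, adjusted p = 0.00092, edgeR) in group A and 2.76 (SE 0.45, adjusted p = 0.00013) in group B.

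Pola1 (chrX:93304767-93632155, minus strand) encodes the catalytic subunit of polymerase alpha, which starts new strands with primase. Its level was 16.3, 24.3, 13.3 and 16.4 CPM in controls, 33.2, 43.3, 38.0 and 20.7 CPM in group A and 49.5, 25.2, 31.6 and 32.7 CPM in group B. Control replicate 2 was above group A replicate 4, and group B did not overlap the controls. The estimate was smaller than that of Pole, 0.92 on the log2 scale (SE 0.28, adjusted p = 0.023, edgeR) in group A and 0.96 (SE 0.28, adjusted p = 0.018) in group B. It lost the threshold without control replicate 1, 3 or 4, and also without group A replicate 2 or 3 in group A and without group B replicate 1 in group B, with adjusted p of up to 0.085 and 0.098.

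Pold1 (chr7:44532746-44548849, minus strand), the catalytic subunit of the lagging strand polymerase delta, passed the test in group A. It was at 1.03, 2.30, 2.91 and 2.59 CPM in controls, 9.62, 11.5, 6.52 and 6.30 CPM in group A and 5.35, 4.53, 3.16 and 3.45 CPM in group B. Both ischemic groups were above all controls. The log2 fold change was 1.90 (SE 0.62, adjusted p = 0.032, edgeR) in group A and 0.87 (SE 0.61, adjusted p = 0.37) in group B. The call in group A was lost without any of the 4 controls, without group A replicate 1, 2 or 3, or without group B replicate 1, with adjusted p of up to 0.11.

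Fen1 (chr19:10199132-10204169, minus strand) encodes the nuclease that removes primer flaps, and was the fork gene with the highest level per length. Its values were 5.99, 5.34, 0.75 and 5.08 CPM in controls, 13.3, 18.4, 17.9 and 10.8 CPM in group A and 8.19, 7.02, 17.9 and 12.6 CPM in group B. No ischemic kidney overlapped the controls. The log2 fold change of 1.80 (SE 0.52, adjusted p = 0.017, edgeR) passed in group A, and that of 1.39 (SE 0.52, adjusted p = 0.062) in group B did not. Exons of Fen1 share 130 bases with Tmem258 and 1909 bases with an annotated antisense transcript, both on the other strand.

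The other fork genes were spread widely. Lig1, which seals the nicks of the lagging strand, had log2 fold changes of 2.17 (SE 0.92) and 2.49 (SE 0.93), with edgeR adjusted p of 0.11 and 0.062 in groups A and B, and passed in group B without group B replicate 4 (adjusted p = 0.034). Rfc3, a subunit of the clamp loader, had 2.50 (SE 1.01) and 1.85 (SE 0.99), with adjusted p of 0.088 and 0.21, and lay above all controls in group A. The remaining clamp loader genes Rfc2, Rfc4 and Rfc5 and the genes Prim1 and Rpa2 had estimates between -1.10 and 2.34, with adjusted p between 0.51 and 0.98.

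Pcna, the sliding clamp and a common mark of S phase, passed in neither ischemic group. It was at 3.59, 0, 1.31 and 2.16 CPM in controls, 0.77, 0, 1.18 and 1.67 CPM in group A and 1.51, 5.65, 4.89 and 1.43 CPM in group B. All 3 groups overlapped. The log2 fold changes were -0.96 (SE 1.46, adjusted p = 0.76, edgeR) and 0.93 (SE 1.46, adjusted p = 0.76), with 95% intervals of -4.02 to 2.11 in group A and -2.12 to 3.99 in group B. The genome also holds copies annotated as Pcna pseudogenes, with which reads can be shared, so its counts are uncertain. Pola2, a subunit of polymerase alpha, was not tested, with 66 and 1 counts in control replicates 1 and 4, 20 in group A replicate 3, 24 in group B replicate 3 and 0 in the others.

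**Figure D3:**
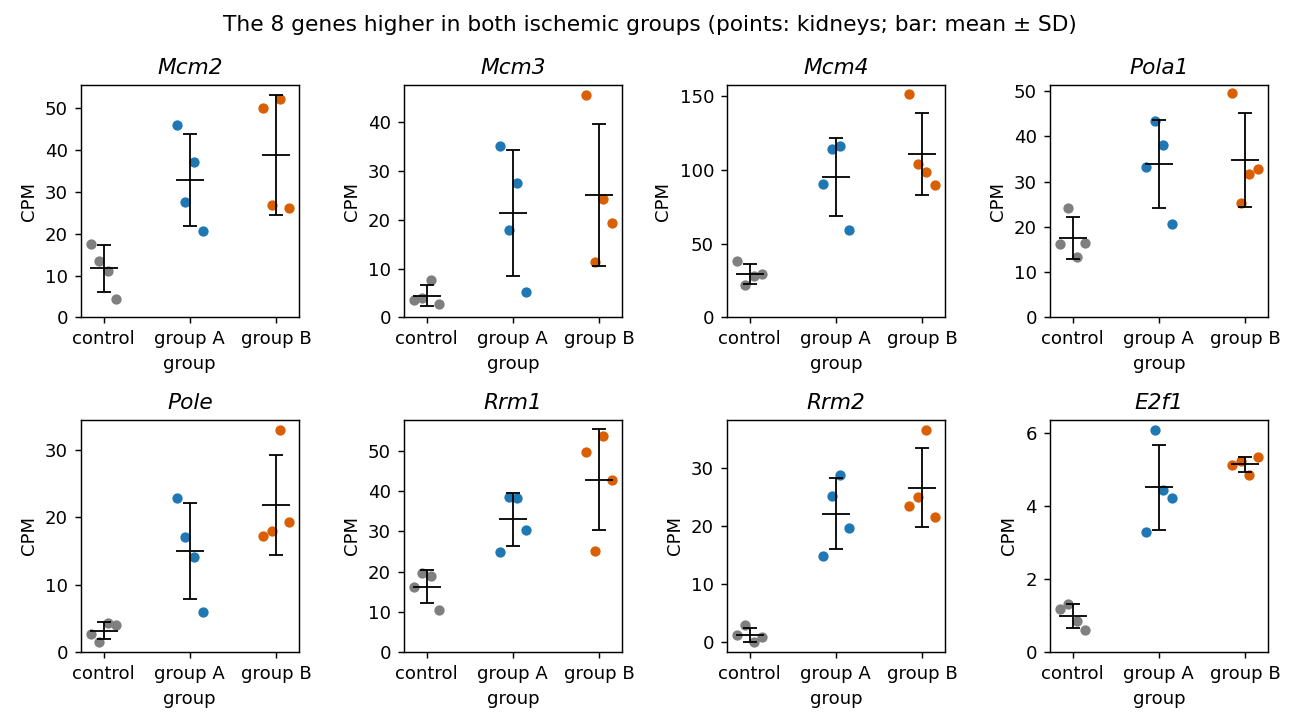
CPM of the 8 genes that rose in both ischemic groups (panels), with 4 kidneys per group as points and the mean ± SD as bars. In Mcm4, Mcm2, Pole, Rrm1, Rrm2 and E2f1 no ischemic kidney overlaps the controls, while group A replicate 4 overlaps them in Mcm3 and Pola1.

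Nucleotide supply held the largest change of the list among the genes called in both ischemic groups. Ribonucleotide reductase makes deoxynucleotides from ribonucleotides and is built of a large subunit, Rrm1, and a small one, Rrm2, which is made mainly in S phase. Of the 6 genes of the role, 4 were tested and both subunits rose in both ischemic groups, where 9.07% of all genes tested did. The role summed to 21.3 ± 4.54 CPM (SD, n = 4) in controls, 62.7 ± 15.3 CPM in group A and 76.7 ± 18.97 CPM in group B.

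Rrm2 (chr12:24708241-24714146, plus strand) was at 1.23, 2.81, 0 and 0.72 CPM in controls, 14.8, 25.1, 28.7 and 19.6 CPM in group A and 23.4, 25.0, 36.5 and 21.5 CPM in group B. The lowest ischemic kidney was far above the highest control. The mean CPM was 18.6-fold higher in group A and 22.4-fold higher in group B than in controls, with log2 fold changes of 4.17 (SE 0.68, adjusted p = 0.00012, edgeR) and 4.44 (SE 0.69, adjusted p = 7.1e-05). The size of the fold rested on low controls, and without control replicate 2 it was 34.0 in group A and 40.98 in group B.

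Rrm1 (chr7:102441695-102469771, plus strand) was at 16.2, 19.7, 18.9 and 10.4 CPM in controls, 24.9, 38.5, 38.3 and 30.3 CPM in group A and 49.6, 25.2, 53.7 and 42.8 CPM in group B. Again the ischemic kidneys did not overlap the controls. The log2 fold change was 0.99 (SE 0.27, adjusted p = 0.012, edgeR) in group A and 1.37 (SE 0.28, adjusted p = 0.00096) in group B. Per length, the level of Rrm1 was above that of Rrm2 in controls (1.48 against 0.43 CPM per kb of exon). Rrm2 was above Rrm1 in group A (7.96 against 3.0 CPM per kb) and in group B (9.59 against 3.89 CPM per kb). This order depends on the lengths, which merge all annotated exons, 11012 bases for Rrm1 and 2771 for Rrm2. In mean CPM, Rrm1 was above Rrm2 in every group, at 33.0 against 22.05 in group A and 42.8 against 26.6 in group B.

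The thymidylate genes did not pass the test. Tyms, which makes thymidylate from deoxyuridylate, had log2 fold changes of 0.63 (SE 0.67, adjusted p = 0.62, edgeR) in group A and 0.69 (SE 0.67, adjusted p = 0.56) in group B. A Tyms pseudogene is counted separately, so its reads may be split. Tk1, which recycles thymidine, had estimates of 2.63 (SE 2.18) and 1.96 (SE 2.13), with adjusted p of 0.49 and 0.62, and no kidney above 3.48 CPM. Dut and Ung, which keep uracil out of DNA, had counts in 1 kidney each, 45 in group A replicate 1 and 54 in group B replicate 1, and were not tested.

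All 5 genes of chromatin copying were tested, and 1 rose in group A and none in group B, where 10.5% and 10.9% of all genes tested rose. The sums were 14.1 ± 3.47 CPM (SD, n = 4) in controls, 23.5 ± 7.46 CPM in group A and 30.4 ± 11.2 CPM in group B. Uhrf1 (chr17:56303321-56323486, plus strand), which brings the maintenance methyltransferase to newly copied DNA, had no count in the controls, 80, 159, 45 and 0 counts in group A and 37, 0, 0 and 31 in group B. These were 2.56, 6.90, 1.01 and 0 CPM in group A and 1.24, 0, 0 and 2.02 CPM in group B, so group A replicate 4 and group B replicates 2 and 3 were level with the controls. Taking the zeros as counts, against a floor of 3 counts in each control library, the mean was at least 25.4-fold higher in group A (edgeR adjusted p = 0.030) and at least 7.88-fold higher in group B (adjusted p = 0.056). Without group A replicate 2 the limit in group A was 11.5-fold, and without group B replicate 4 that in group B was 3.996-fold. The call in group A was lost without any of the 4 controls or without group A replicate 2, with adjusted p of up to 0.084. Uhrf1 was tested only because ischemic kidneys had counts, so its place among the tested genes depended on the rise itself.

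Slbp (chr5:33634952-33652574, minus strand), which binds the end of histone mRNA, was the gene of this role with the highest level per length, and did not pass the test. It was at 9.13, 8.02, 6.50 and 6.39 CPM in controls, 12.6, 8.16, 9.85 and 7.49 CPM in group A and 12.9, 9.31, 10.7 and 4.23 CPM in group B. All 3 groups overlapped. The log2 fold changes were 0.32 (SE 0.43, adjusted p = 0.72, edgeR) and 0.29 (SE 0.44, adjusted p = 0.74). Dnmt1, the maintenance methyltransferase, had 0.48 (SE 0.51) and 1.10 (SE 0.51), with adjusted p of 0.62 and 0.14. Chaf1b, a histone chaperone subunit, was found in control replicate 3 alone among the controls, lay above them in all of group B and had log2 fold changes of 3.15 (SE 1.74) and 4.82 (SE 1.87), with adjusted p of 0.24 and 0.073. The other chaperone subunit, Chaf1a, had 0.94 (SE 1.27) and 1.67 (SE 1.29), with adjusted p of 0.72 and 0.44, and shares 4648 exonic bases with Ubxn6 on the other strand.

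Among the genes of entry into S phase, E2f1 (chr2:154559407-154569892, minus strand) rose in both ischemic groups. It encodes an activating E2F factor and is itself an E2F target. It was at 1.18, 1.33, 0.86 and 0.62 CPM in controls, 3.29, 6.08, 4.44 and 4.22 CPM in group A and 5.12, 5.22, 4.84 and 5.34 CPM in group B, or 23 to 52 counts in controls and 71 to 199 in ischemic kidneys. Every ischemic kidney was above every control, and the 4 kidneys of group B lay close together. On the log2 scale it rose by 2.15 (SE 0.76, adjusted p = 0.047, edgeR) in group A and 2.34 (SE 0.76, adjusted p = 0.032) in group B. Both calls were near the threshold. Leaving out any of the 12 kidneys raised the adjusted p in group A to between 0.052 and 0.11, and in group B the call was lost without control replicate 3 or 4 or group B replicate 1 or 2, with an adjusted p of up to 0.082. The cyclins E, which drive Cdk2 into S phase, gave little signal. Ccne1 had 33 counts in group A replicate 2 and none elsewhere and was not tested, and Ccne2 had estimates of -0.07 (SE 2.19) and 1.98 (SE 2.26), with adjusted p of 0.99 and 0.64.

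**Figure D4:**
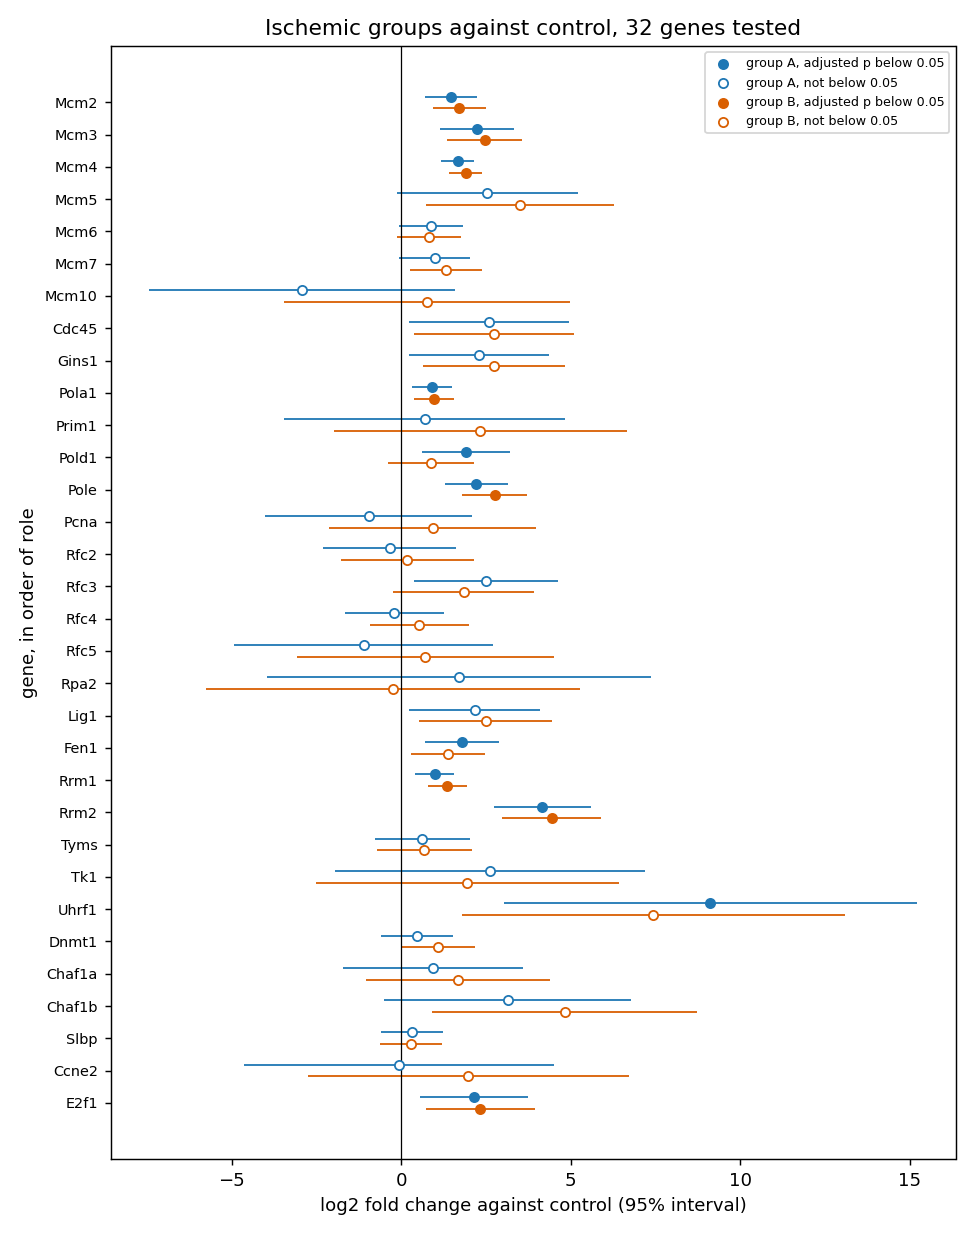
Log2 fold change against control (points) with the 95% interval (lines) of the 32 genes tested, for group A (blue) and group B (orange), with filled points at an adjusted p below 0.05. Most points lie right of 0 in both ischemic groups, the intervals of Mcm4, Rrm1 and Pola1 are narrow, and those of Uhrf1, Rpa2 and Ccne2 span many units.

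Between the 2 ischemic groups, no replication gene passed the test. In edgeR none of the 32 passed the adjusted threshold, where 1 of 11664 genes (0.00857%) did, and none had an unadjusted p below 0.05, where 587 genes (5.03%) did. DESeq2 and limma-trend called none of them either. The smallest unadjusted p was 0.10, for Pold1, with a log2 difference of -1.03 for group B minus group A (95% interval -2.30 to 0.24). The estimate was above 0, higher in group B, for 24 of 32 genes, with a median of 0.30. The intervals set the limit of this comparison. They were -0.24 to 0.70 for Mcm4, -0.51 to 0.999 for Mcm2, -0.54 to 0.63 for Pola1, -0.19 to 0.94 for Rrm1, -0.97 to 1.51 for Rrm2 and -0.35 to 1.43 for Pole. Each interval reached between 0.47 (Mcm4) and 5.69 (Rpa2) to either side of its estimate, with a median of 1.68, so a difference of several fold between the ischemic groups was not detectable for many of the genes.

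Other genes of the same pathways were counted for comparison. Of 116 genes in 6 further lists, 96 were tested. In group A 14 rose (14.6%) and 8 fell (8.33%), where 10.5% and 11.7% of all genes tested did. In group B 16 rose (16.7%) and 7 fell (7.29%), where 10.9% and 11.9% did. In both ischemic groups 12 rose (12.5%) and 7 fell (7.29%), where 9.07% and 9.49% of all genes did. The list of licensing and origin genes, which holds the origin recognition complex, had none of its 10 tested genes called in either ischemic group. Of 21 further fork genes, Prim2 alone rose in both. This subunit of primase had 0 counts in controls, 79, 45, 131 and 23 in group A and 1, 30, 0 and 158 in group B, with edgeR adjusted p of 0.011 and 0.0091, and the call in group B was lost with limma-trend.

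Among the nucleotide synthesis genes some rose and some fell. Those named beside Cad and Mthfd2 were chosen after their values were seen. Of 22 genes tested, 5 rose and 5 fell in both ischemic groups, where 9.07% and 9.49% of all genes did. Cad, which runs the opening steps of pyrimidine synthesis, went from 62.8 ± 14.2 CPM (SD, n = 4) in controls to 259.9 ± 80.4 CPM in group A and 235.1 ± 61.0 CPM in group B (log2 fold change 2.02, SE 0.24, and 1.89, SE 0.24, with edgeR adjusted p = 2.4e-06 and 5.6e-06). Mthfd2, a mitochondrial folate enzyme, had 0 to 8 counts in controls and 41 to 414 in ischemic kidneys (adjusted p = 0.00037 and 0.0015). The CTP synthase gene Ctps and the guanine pathway genes Impdh1 and Impdh2 also rose in both ischemic groups.

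Genes that fell included Rrm2b, which works beside Rrm1. Rrm2b, the small subunit of ribonucleotide reductase that is made outside S phase, fell from 32.5 ± 6.00 CPM (SD, n = 4) to 17.2 ± 5.11 CPM in group A and 16.6 ± 4.44 CPM in group B, with log2 fold changes of -0.95 (SE 0.29, adjusted p = 0.021, edgeR) and -1.003 (SE 0.29, adjusted p = 0.015). The folate enzyme Shmt2 fell from 711.4 to 208.6 and 209.4 CPM, and Mthfd1 and the purine enzyme Paics fell in both ischemic groups too. These genes moved beside the proximal tubule markers, which fell in both ischemic groups, and the part of those cells in the falls was not tested.

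**Figure D5:**
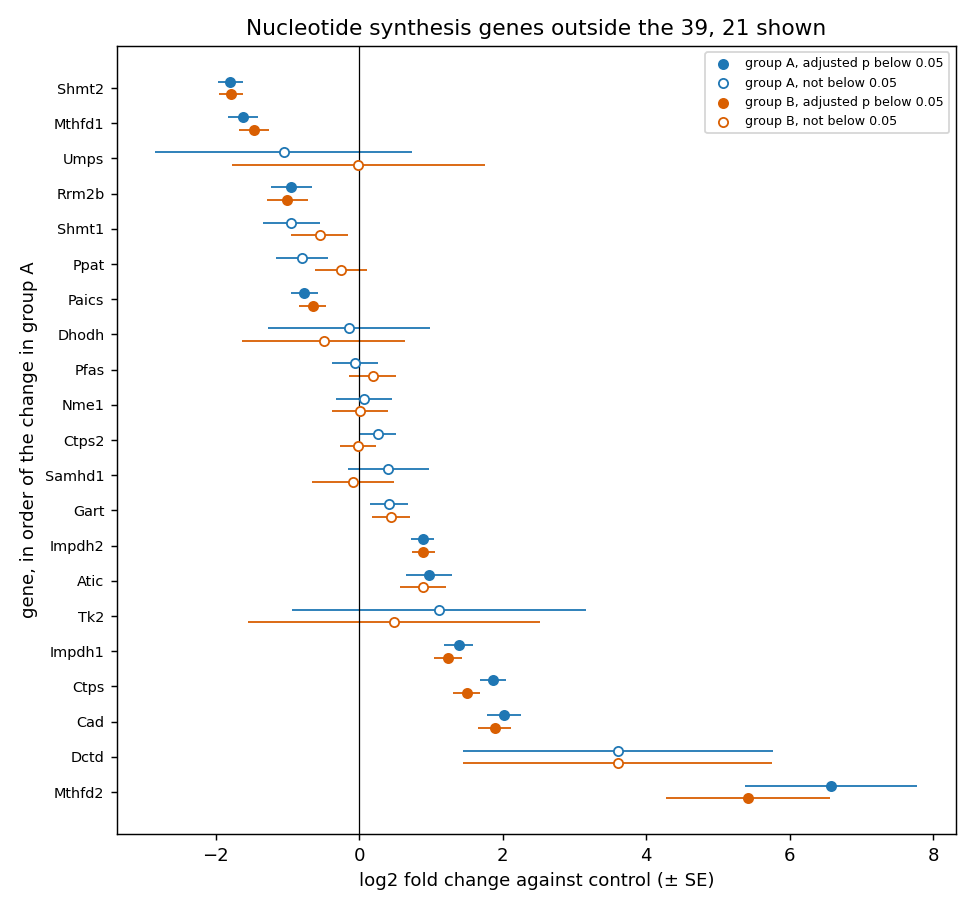
Log2 fold change against control (points) with its SE (lines) of 21 of the 22 nucleotide synthesis genes tested outside the list of 39, for group A (blue) and group B (orange), with filled points at an adjusted p below 0.05. Shmt2, Mthfd1, Rrm2b and Paics lie left of 0 in both ischemic groups and Cad, Ctps, Impdh1, Impdh2 and Mthfd2 lie right of it.

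Histone supply had 2 genes higher and 1 lower in both ischemic groups among 11 tested, where 9.07% and 9.49% of all genes were higher and lower in both. Nasp, a histone chaperone, rose by log2 fold changes of 1.22 (SE 0.31, edgeR adjusted p = 0.0066) in group A and 1.09 (SE 0.31, adjusted p = 0.014) in group B, and Rbbp4, a histone-binding subunit shared by several complexes, fell by 0.56 (SE 0.13, adjusted p = 0.0035) and 0.48 (SE 0.13, adjusted p = 0.011). Both lost the call in group B without control replicate 4, and Nasp also without group B replicate 1. Of 22 further genes of G1/S control, 3 rose and 1 fell in both, against the same shares of all genes. Cdk2, the kinase of cyclins E and A, rose from 30.6 ± 7.14 CPM (SD, n = 4) to 64.2 ± 3.75 CPM in group A and 69.7 ± 6.96 CPM in group B (adjusted p = 0.00033 and 0.00011). E2f4, a repressive E2F factor, rose from 31.8 ± 6.76 CPM to 94.3 ± 7.73 CPM and 83.9 ± 23.1 CPM (adjusted p = 2.6e-05 and 9.0e-05).

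Of 10 proliferation markers, 4 had enough counts to be tested. Top2a, the topoisomerase of dividing cells, was at 6.93 to 10.4 CPM in controls, 20.7 to 30.8 CPM in group A and 19.6 to 39.3 CPM in group B, and rose in both ischemic groups (edgeR adjusted p = 0.00062 and 8.1e-05). Cdk1, the kinase of mitosis, had 0 counts in controls, 13, 16, 125 and 56 in group A and 13, 48, 0 and 0 in group B, with adjusted p of 0.034 and 0.049. Neither call was firm. Both were lost without any of the 4 controls, that in group A also without group A replicate 3 or 4, and that in group B without any kidney of group A, without group B replicate 1 or 2 and with limma-trend (adjusted p = 0.30). Plk1, a kinase of mitosis, had 0, 224, 166 and 201 counts in controls, 337, 497, 573 and 159 in group A and 1011, 346, 847 and 222 in group B, with log2 fold changes of 1.62 (SE 0.70, adjusted p = 0.11) and 2.66 (SE 0.72, adjusted p = 0.010). Tpx2, a spindle gene, had 2.60 (SE 1.81) and 3.73 (SE 1.90), with adjusted p of 0.38 and 0.18. Ccnb1, the mitotic cyclin, had 22 and 21 counts in control replicates 1 and 4 and 0 in all other kidneys, and was not tested. Mki67, the gene of the marker Ki-67, had between 0 and 35 counts per kidney, with 0 in most of them. It was not tested, so these counts say nothing on a change in it.

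Markers of other cell types were followed beside the replication genes. Fibroblast and pericyte markers summed to 383.5 to 496.6 CPM in controls, 905.2 to 2529 CPM in group A and 1153 to 2400 CPM in group B, with 2 of 4 tested higher in each, and their part in the rise of the replication genes was not tested. Macrophage markers were lower in sum, from 43.9 to 64.3 CPM in controls to 12.9 to 32.4 CPM in group A and 11.97 to 32.1 CPM in group B, with 1 of 5 tested genes higher and 1 lower in each. Neutrophil markers summed to at most 0.98 CPM in group A and 2.73 CPM in group B, with S100a8 and Retnlg at 0 in all kidneys. T and NK cell markers summed to 0.67 to 4.65 CPM in controls and were at 0 in every ischemic kidney, and B cell markers reached at most 0.54 CPM. Endothelial markers summed to 123.7 to 155.0 CPM in controls, 67.2 to 132.1 CPM in group A and 57.3 to 107.3 CPM in group B. Erythroid markers summed to 58.2 to 118.8 CPM in controls, 25.2 to 48.9 CPM in group A and 14.5 to 31.5 CPM in group B.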

How the data were processed

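RNA from 12 mouse kidneys, 4 per group, was sequenced. The authors prepared stranded mRNA libraries for single-read sequencing, aligned the reads with STAR to mm10 and used HTSeq to count them by gene. They deposited raw counts of 23420 genes, without normalization. Versions, annotation release, strand setting and any removal of duplicates are not given in the sources used here. The counts were fitted in edgeR 4.0.16 (R 4.3.3), the main test, with TMM scaling and its default low-count filter (minimum count 10, minimum total 15), which left 11664 genes. All 12 kidneys entered a fit of 3 groups, tested by two-sided quasi-likelihood F-tests with Benjamini-Hochberg adjustment over all 11664 genes and a threshold of 0.05. SE and 95% intervals come from that fit. Uhrf1, Prim2, Cdk1 and Cdkn1a had no count in controls and so passed the filter only through ischemic kidneys. CPM used counted totals. The scripts were tested on simulated counts.

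Samples were grouped by titles and group fields, which contradict each other for the ischemic kidneys. Gene positions and exon lengths are from GENCODE M21 (GRCm38, the mm10 build) and promoters from RefSeq. Values in every kidney are given, per role, for the genes past the threshold with the largest average change and for the gene with the highest level per length, and Pcna was added after its values were seen. In the further lists, the 2 genes with the largest average change among those called in both ischemic groups were named. The 39 genes and all lists were chosen with earlier results of these data known. Alternatives were RLE factors, no filter, a minimum of 1 CPM in 4 or more kidneys, a block for the replicate number, a fit of the compared pair of groups alone, DESeq2 1.42.0, limma-trend (limma 3.58.1), a prior count of 0.5 and leaving out each kidney. CPM scaled by TMM factors was added after seeing the data. Tables used Python 3.11.15, NumPy 2.4.6, pandas 2.3.3 and matplotlib 3.10.9. Values of some genes of the further lists are not reported here.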

Additional observations from a re-analysis of the deposited data

Results flagged for a closer look

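In 41 groups of 4 kidneys, for the genes given by kidney, the gap of the highest or lowest kidney to its nearest neighbour was set against the range of the group, and 2 groups were past Dixon's critical value for 4 samples, where chance flags about 1 in 20 groups. Gins1 was at 4.08 CPM in control replicate 1 and at 0 to 0.46 CPM in the other controls, a gap of 0.89 of the range. Without that kidney its log2 fold change went from 2.30 to 4.36 in group A and from 2.75 to 4.80 in group B, and passed the threshold in both (edgeR adjusted p = 0.0038 and 0.0021). Pole was at 32.9 CPM in group B replicate 3 and at 17.3 to 19.4 CPM in the other kidneys of group B, a gap of 0.87 of the range.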

How the results depend on the processing

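Mcm2, Mcm3, Mcm4, Pole, Rrm1 and Rrm2 kept their call in both ischemic groups under 7 alternatives of fit, filter or test and under all 12 omissions of a kidney, and Fen1 did in group A. In group B, DESeq2 and limma-trend called 15 genes higher in place of 8, adding Cdc45, Chaf1b, Fen1, Gins1, Lig1 and Mcm7 in common, in group A DESeq2 added Rfc3 and limma-trend added Cdc45, Gins1, Lig1 and Rfc3, and DESeq2 called 25 genes of the further lists higher in place of 16. Leaving out a kidney gave 7 to 10 genes higher in group A, with 7 without group A replicate 2, where 11 were called, and 6 to 12 in group B, with 6 without group B replicate 1. The median log2 fold change then ran from 1.32 to 1.72 in group A and from 1.38 to 1.90 in group B, and 11 to 17 and 11 to 20 further genes were higher. Without the filter E2f1 lost its call in both ischemic groups and Pold1 in group A, while Gins1, Lig1, Mcm5 and Uhrf1 gained it in group B, giving 9 and 11 calls. With only the 2 groups compared, E2f1 lost both calls and Uhrf1 that in group A, and limma-trend lost Uhrf1 in group A. CPM scaled by TMM factors left the counts of genes above all controls at 10 and 12. Counts near 0 limit what can be shown for the genes not tested.

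Same-numbered kidneys did not deviate together (correlations of -0.0554 to 0.0452 over the 12 pairs). Deviations from means of 4 kidneys cannot tell whether same-numbered kidneys shared a mouse or handling, so pairing stays unknown. With the replicate block, 10 genes were higher in group A and 11 in group B, 8 and 7 of them shared with the fit without it, and E2f1 lost both calls and Pold1 and Uhrf1 those in group A, while Cdc45 and Gins1 gained both and Chaf1b and Mcm5 those in group B. Under the block Cdk1 lost both calls and Prim2 that in group B.

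The sign of some estimates that did not pass the test turned. Over the omissions of a kidney, the log2 fold change in group A ran from -2.59 to 2.25 for Prim1, from -0.71 to 0.87 for Rfc2, from -0.77 to 0.24 for Rfc4, from -0.47 to 7.64 for Rpa2 and from -1.48 to 1.95 for Ccne2. In group B it ran from -2.05 to 1.55 for Mcm10, from -0.21 to 1.37 for Rfc2, from -0.63 to 1.57 for Rfc5 and from -5.89 to 5.70 for Rpa2. With limma-trend, Rfc2 became 0.47 and Ccne2 0.039 in group A and Mcm10 -1.25 in group B. With the replicate block, Rfc2 became 0.21 in group A and Mcm10 -2.77 and Rfc5 -0.92 in group B. The cause was not tested.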

Other observations

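Regulators of cyclin-dependent kinases were seen beside the replication genes, and are named here after their values were seen. Cdkn1a, which encodes the p21 inhibitor of cyclin-dependent kinases, had 0 counts in the 4 controls, 0, 0, 21 and 34 in group A and 43, 88, 106 and 0 in group B, with an edgeR adjusted p of 0.063 in group A and 0.026 in group B. The other inhibitors tested, Cdkn1b, Cdkn1c and Cdkn2c, had estimates below 0 in both ischemic groups that did not pass the test, with log2 fold changes of -0.13, -0.63 and -0.82 in group A and -0.53, -0.78 and -0.83 in group B and adjusted p between 0.32 and 0.89. Rbl2, a pocket protein that represses E2F targets in resting cells, fell from 57.8 ± 4.65 CPM (SD, n = 4) in controls to 29.9 ± 10.8 CPM in group A and 33.7 ± 11.7 CPM in group B (adjusted p = 0.017 and 0.046). The pocket protein genes Rbl1 and Rb1 had estimates above 0 that did not pass the test. Their log2 fold changes were 0.86 and 0.048 in group A and 1.30 and 0.38 in group B. Cdk4, a kinase of the D cyclins, rose from 55.2 ± 12.02 CPM to 109.5 ± 13.1 CPM and 106.3 ± 31.3 CPM (adjusted p = 0.0023 and 0.0033). Cdk6, another such kinase, passed the edgeR test in group A alone (adjusted p = 0.023 and 0.089). The D cyclin genes Ccnd1, Ccnd2 and Ccnd3 had estimates below 0 in both ischemic groups that did not pass the test.

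Low counts were rare in the table. Of the 468 values of the 39 genes, 124 were 0, 6 lay between 1 and 9 (1.28%) and 338 were at 10 or more. Over all 23420 genes, 148861 values were 0, 3473 lay between 1 and 9, 5412 between 10 and 19 and 5510 between 20 and 29. Among the instances of 1 kidney at 0 beside 3 at 10 or more, in Mcm5 group A replicate 4 had 0 and the others 130 to 534 counts, and in Rfc5 this occurred in control replicate 3, group A replicate 2 and group B replicate 2.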
